A study of Mus musculus with 19 samples.

Results

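Cells selected as neutrophils at the tenotomy site were followed through the course of heterotopic ossification (HO), the formation of bone in soft tissue after trauma, in mice that received a dorsal scald burn over 30% of the body surface and a transection of the Achilles tendon (burn/tenotomy). The cells were chosen by a rule on their own transcripts: 500 genes or more, mitochondrial UMIs of no more than 25%, S100a8 and S100a9 together at 0.5% or more of the UMIs, at least 1 UMI of Csf3r or Cxcr2 and more of these than of Csf1r, at most 3 UMIs of C1qa, C1qb and C1qc, and none of Pdgfra. A UMI (unique molecular identifier) marks a captured transcript, so that PCR copies of it are counted as 1. Of 39541 cells with enough genes and few mitochondrial UMIs, referred to as kept cells, 192 met the rule. Because these transcripts selected the cells, their levels are given as a description and were not tested.

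The 19 droplet libraries held cells of the tenotomy site before injury (day 0, n = 4), 3, 7 and 21 days after it (day 3, n = 3; day 7, n = 4; day 21, n = 4), and at day 7 from mice given a CD47 activating peptide (p7N3, 10 mg/kg i.p. daily from 3 days before to 3 days after the injury, n = 4). The labels name C57 and LysmCre/Tgfb1fx/fx mice, in which Lysm drives Cre in myeloid cells, neutrophils included, without saying which libraries came from which. They name no vehicle, no ages and no harvest day of peptide replicate 4. The study's methods and text give young adult male C57BL/6J mice as its wild type and PBS as the control of the peptide, and which day 7 libraries received PBS is not stated in the labels. Nothing in the labels says which libraries came from separate mice, so that p-values measure the spread between libraries. The fourth replicates of day 0, day 7, day 21 and the peptide carry another genome build in the processing notes than all other libraries. Values without them are given for the shares and for the numbers of genes that passed.

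Neutrophils are short-lived granulocytes that leave the blood within hours of an injury. They carry S100a8 and S100a9 (calprotectin) in their cytosol, respond to G-CSF through Csf3r and to the chemokines CXCL1 and CXCL2 through Cxcr2, and make few new granule proteins once they have left the bone marrow. In the tissue they release oxidants, proteases, IL-1β and chemokines that draw in further neutrophils and monocytes, and are then cleared by macrophages. CD47, the receptor addressed by the peptide, binds thrombospondins and SIRPα (Sirpa), the latter found on myeloid cells.

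As a share of all kept cells, the selected cells were most frequent at day 3 and nearly absent at day 21. At day 0, 4, 4, 1 and 1 cells met the rule in replicates 1 to 4, which is 0.399%, 0.701%, 0.0900% and 0.114% of the kept cells. At day 3, 23, 13 and 63 cells made up 1.17%, 0.608% and 3.73% (95% exact binomial intervals 0.743 to 1.75%, 0.324 to 1.04% and 2.88 to 4.74%, which cover counting error only). At day 7, 13, 7, 8 and 7 cells made up 0.398%, 0.196%, 0.218% and 0.241%. Thus 63 of the 99 cells of day 3 came from replicate 3, whose share stood above those of all other libraries, and the lowest library of day 3 lay below the highest of day 0 but above the highest of day 7. At day 21, replicates 2 and 3 held 1 cell each, and 0 of 1537 and 0 of 1956 cells in replicates 1 and 4 allow shares of up to 0.195% and 0.153% by the limit of 3 cells of the total (upper ends of the exact intervals 0.240% and 0.188%). With the peptide, 11, 17, 11 and 7 cells made up 0.399%, 0.472%, 0.433% and 0.277%.

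**Figure D1:**
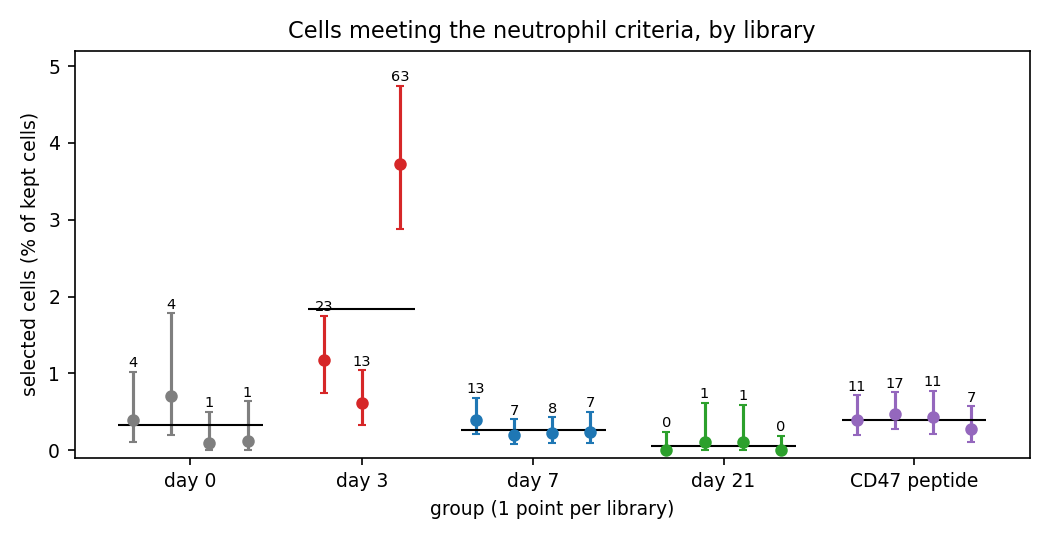
Share of kept cells (y axis, %) that met the criteria in each of the 19 libraries (points, grouped on the x axis), with 95% exact binomial intervals, the group means as black lines and the number of selected cells above each point. The 3 day 3 libraries sit at 0.608, 1.17 and 3.73%, and no library of day 7 exceeds 0.398%.

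The share differed between the 5 groups (Kruskal-Wallis H 12.9, permutation p = 0.00157 over 100000 resamples), and also without the fourth replicates (H 10.1, permutation p = 0.0107). Among cells with a UMI of Ptprc (CD45, carried by leukocytes) it did not pass (H 8.10, permutation p = 0.0696), and the means of day 0 (2.39% ± 2.76, n = 4) and day 3 (2.27% ± 1.95, n = 3) changed order, above 0.447% at day 7, 0.302% at day 21 and 0.657% with the peptide. As a share of all kept cells it was 0.326% ± 0.286 (SD, n = 4) at day 0, 1.83% ± 1.66 (n = 3) at day 3, 0.263% ± 0.0919 (n = 4) at day 7, 0.0540% ± 0.0624 (n = 4) at day 21 and 0.395% ± 0.0844 (n = 4) with the peptide. None of the 4 pairs of groups passed a two-sided exact permutation test after Benjamini-Hochberg adjustment over the 4 pairs. Day 7 lay 1.57 percentage points below day 3 in means (-1.57, exact p = 0.0571, adjusted p = 0.114), and no library of either group overlapped with the other. An exact p of 0.0571 is the smallest that 3 against 4 libraries can give. The peptide mean was 0.132 percentage points above day 7 (exact p = 0.0571, adjusted p = 0.114), where 4 against 4 libraries could reach 0.0286, and the ranges overlapped in the peptide library at 0.277%. Without the fourth replicates these differences were -1.56 (exact p = 0.1) and 0.164 (exact p = 0.1). Day 3 against day 0 (1.51, exact p = 0.114) and day 21 against day 0 (-0.272, exact p = 0.114) did not pass either. Without the fourth replicates these 2 differences were 1.44 (exact p = 0.2) and -0.324 (exact p = 0.3). Without day 3 replicate 3, day 7 minus day 3 was -0.625 and day 3 minus day 0 was 0.563.

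C1q transcripts, which the rule limits, were also found in cells that should lack them. As a reference served cells of the stroma with at least 1 UMI of Pdgfra and none of Csf1r, Csf3r and Cxcr2, called Pdgfra-positive cells. At day 3 these cells, which should hold no C1q, carried on average 8.02, 12.7 and 9.59 UMIs of C1qa, C1qb and C1qc in replicates 1 to 3, at a median of 21040, 26100 and 29160 UMIs a cell. In day 7 libraries the Pdgfra-positive cells carried 1.05 to 1.76. The limit on C1q was the sole criterion that 122 further cells of day 3 and 9 of day 7 missed. Without it, 221 cells of day 3 qualified, 3.95% ± 1.86 (n = 3, lowest 2.71%, highest 6.09%), against 44 at day 7, 0.334% ± 0.106 (n = 4). The smallest kept cell of day 3 held 5018 to 5382 UMIs in the 3 libraries, that of day 7 held 2521 to 3328 and that of day 0 held 736 to 1037, so that small cells were counted at day 0 and not at day 3. The median selected cell of day 0 held 1299 UMIs. With all cells thinned to 1500 UMIs, the share was 2.73% ± 1.59 at day 3, 0.167% ± 0.0898 at day 7 and 0.168% ± 0.268 at day 0, where shallower cells, 6 of the 10 selected ones among them, were left out.

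Cells lay on both sides of each threshold. S100a8 and S100a9 made up 0.5 to 0.75% of the UMIs in 16 selected cells, and 33 cells that met all else lay between 0.25 and 0.5%. C1q stood at 3 UMIs in 47 selected cells and at 4 in 33 that were left out for it. Of the 192 cells, 43 qualified on 1 UMI of Csf3r or Cxcr2, 80 held a UMI of Csf1r and 55 exceeded it by 1 UMI. A doublet score (Scrublet) in the top 3.9% of the library, the multiplet rate given in the labels, was found in 11 of 35 cells at day 7, 9 of 46 with the peptide, 3 of 10 at day 0 and 1 of 99 at day 3. No doublets were removed. Barcodes that occur in more than 1 library were carried by 1962 kept cells, 10 of them selected, and no barcode was selected in more than 1 library.

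To check the label, 15 genes of mature neutrophils that the rule did not use were read, among them Retnlg, Ly6g, Mmp8, Mmp9, Il1r2, Hdc, G0s2, Trem1, Cd177, Slpi, Stfa2l1, Wfdc21, Clec4d and Mxd1. A selected cell held UMIs of a median of 12 of these 15 genes at day 3 (lowest 8, highest 15), of 8.5 at day 0, of 8 with the peptide and of 6 at day 7 (lowest 2, highest 10). These counts were not taken at equal depth, with medians of 6622, 1299, 4498 and 5373 UMIs a cell in the same order. At least 5 of the genes had a UMI in 99 of 99 selected cells at day 3 and 27 of 35 at day 7. In Pdgfra-positive cells this share was 66.3 to 85.2% in the day 3 libraries and 0.665 to 2.06% at day 7. Retnlg, a resistin-like secreted protein of neutrophils, had a UMI in 96 of 99 cells at day 3 (97.0%, or 87.9% at 1500 UMIs a cell), in 25 of 46 with the peptide (54.3%, thinned 43.5%) and in 12 of 35 at day 7 (34.3%, thinned 17.1%). In Pdgfra-positive cells, which should lack it, the share was 82.3% at day 3, 4.80% with the peptide and 1.59% at day 7, and 15.8%, 0.457% and 0.241% after thinning. Ly6g, the surface antigen by which mouse neutrophils are gated, had a UMI in 29 of 99 cells at day 3, 2 of 46 with the peptide and 0 of 35 at day 7, which allows a share of up to 8.57% (thinned 13.1%, 0% and 0%), against 3.16%, 0.152% and 0.150% of Pdgfra-positive cells (thinned 0%, 0.0381% and 0.0301%). The data thus go against the label for many cells of day 7, and in all groups the cells are called selected cells.

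**Figure D2:**
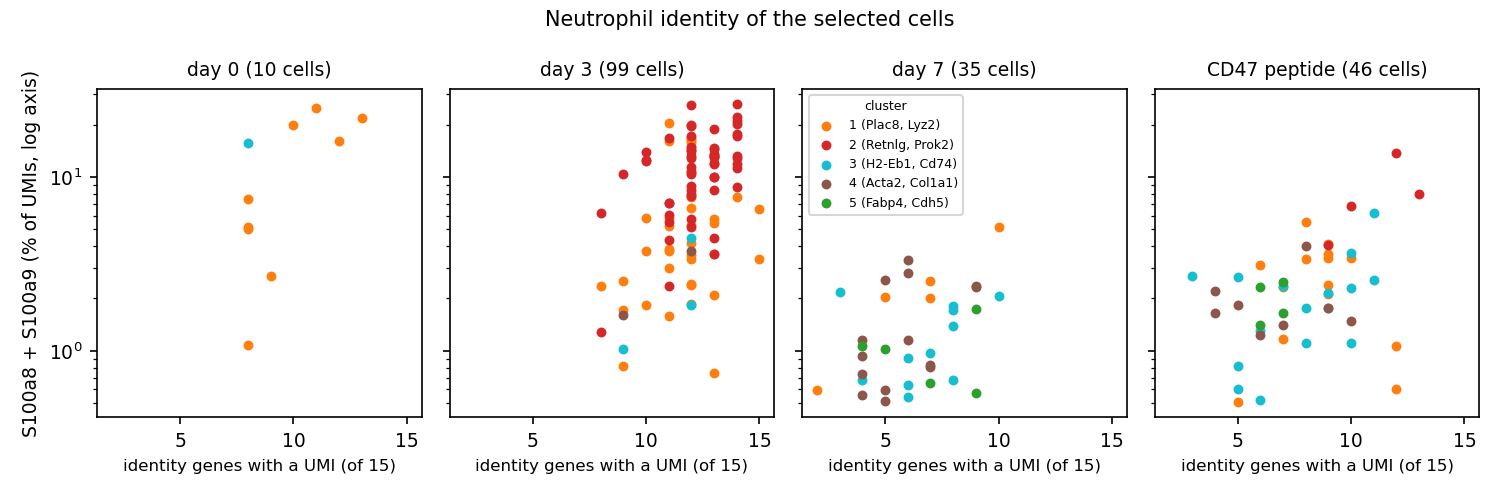
Each point is a selected cell, with the number of the 15 identity genes that have a UMI on the x axis and the share of UMIs from S100a8 and S100a9 on the y axis (log scale), coloured by the cluster the cell falls in. Cells of day 3 reach from 8 to 15 genes and those of day 7 from 2 to 10, while the 2 cells of day 21 are not drawn.

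The transcripts that selected the cells also differed in level among the groups, which is a description only and no check of the label. The median share of S100a8 and S100a9 was 8.40% of UMIs at day 3, 11.5% at day 0, 2.24% with the peptide and 1.07% at day 7, near the limit of the rule. S100a8 (chromosome 3, 90668978 to 90670035, + strand), a calcium- and zinc-binding subunit of calprotectin, was at 40720, 74970 and 49100 CPM (UMIs of a gene per 1000000 UMIs of the selected cells in that library) at day 3. It was at 9030, 7122, 6644 and 6953 CPM at day 7 and at 16410, 17730, 10780 and 21800 CPM with the peptide. The 3 groups did not overlap, with day 3 highest and day 7 lowest. Csf3r was at 560.9, 602.4 and 595.1 CPM at day 3, at 279.8, 50.3, 198.3 and 323.4 CPM at day 7 and at 275.4, 245.5, 192.8 and 159.9 CPM with the peptide, where the ranges of the last 2 groups overlapped. In Pdgfra-positive cells of day 3, which hold no Csf3r or Cxcr2 by definition, 0 of 158 reached the limit of 0.5% S100a8 and S100a9, which allows a share of up to 1.90% (3 cells of the total). In the day 7 libraries 0.153 to 0.643% of Pdgfra-positive cells reached this limit, and 0.143 to 0.518% in the peptide libraries. Outside this class, 3 cells of day 3, 11 of day 7 and 11 with the peptide met every criterion but held Pdgfra. The selected cells of these groups numbered 99, 35 and 46.

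RNA of other cell types moved with the groups. The 7 stromal markers (Col1a1, Col1a2, Col3a1, Dcn, Lum, Sparc and Bgn) summed to 2224, 3023 and 1274 CPM in the selected cells of day 3, to 7466, 38910, 26600 and 23990 CPM at day 7 and to 3812, 18120, 2950 and 1645 CPM with the peptide. The day 7 libraries lay above those of day 3, while the peptide libraries reached from below the highest of day 3 into the range of day 7. The 5 endothelial markers (Cdh5, Kdr, Egfl7, Emcn and Fabp4) summed to 59.6, 44.6 and 74.7 CPM at day 3 and to 5469, 1827, 1413 and 1112 CPM at day 7, with Fabp4, a lipid chaperone of capillaries and fat cells, the most abundant in all 4. Peptide libraries held 1739, 511.5, 3336 and 45.7 CPM. Of the 8 dendritic markers Cd74, the invariant chain of MHC class II, led the sum, which was 7197, 859 and 3213 CPM at day 3, 12680, 1173, 5652 and 8247 CPM at day 7 and 10930, 3130, 14620 and 15080 CPM with the peptide. Mast cell, basophil and eosinophil markers were at 0 in all 3 libraries of day 3 and at 12.7 and 45.7 CPM at most at day 7 and with the peptide. The part of these cells in the comparisons with day 7 was not tested.

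Among themselves the 192 cells fell into 5 clusters (Leiden, rule genes left out), which are described by number since the same genes formed them. Cluster 2 (61 cells) was neutrophil-like: Retnlg, Lcn2, Prok2, a chemokine-like secreted protein of neutrophils, and the chemokine Ccl3 were among its 10 leading genes, together with the globins Hba-a1, Hba-a2 and Hbb-bt, and its cells held a median of 12 identity genes. The rule genes S100a8 and S100a9 made up a median of 11.9% of their UMIs, which does not bear on the name. Cluster 1 (67 cells) was led by Plac8, Lyz2 (lysozyme), Ccr2, the chemokine receptor of inflammatory monocytes, Ms4a6c and Chil3 along with the epidermal genes Sfn and Lgals7, which at a resolution of 0.8 lead another cluster of 11 cells instead, and held a median of 11 identity genes and 3.58% S100a8 and S100a9. Cluster 3 (31 cells) was led by Ccl5 and the MHC class II genes H2-Eb1, H2-Aa, Cd74 and H2-Ab1, cluster 4 (24 cells) by the contractile genes Acta2 and Tagln, the pericyte gene Rgs5 and the collagens Col1a1 and Col1a2, and cluster 5 (9 cells) by Fabp4, Aqp1 and Cd36. None of the 15 identity genes is among the 10 leading genes of clusters 1, 3, 4 and 5, and these clusters were left unnamed. Leading genes were ranked against the other selected cells, so genes shared with cluster 2 may be missing. In clusters 1 to 5 Retnlg was at 2401, 9044, 612.6, 303 and 84.5 CPM. The leading genes of clusters 3, 4 and 5, with medians of 8, 6 and 7 identity genes, go against the name neutrophil. Those of cluster 1 do not settle its name, with Retnlg in 53 of its 67 cells and Ccr2 in 43. Cells of clusters 4 and 5 had top doublet scores in 12 of 24 and 4 of 9 cases.

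At day 3, 56 of 99 cells were in cluster 2 and 38 in cluster 1. At day 7, 0 of 35 cells were in cluster 2, 14 were in cluster 4, 11 in cluster 3 and 5 in cluster 5. With the peptide, 4 of 46 were in cluster 2, 16 in cluster 3, 14 in cluster 1 and 8 in cluster 4. Day 0 had 9 of 10 cells in cluster 1. The day 0 cells held few UMIs each, and no test was made of these numbers.

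**Figure D3:**
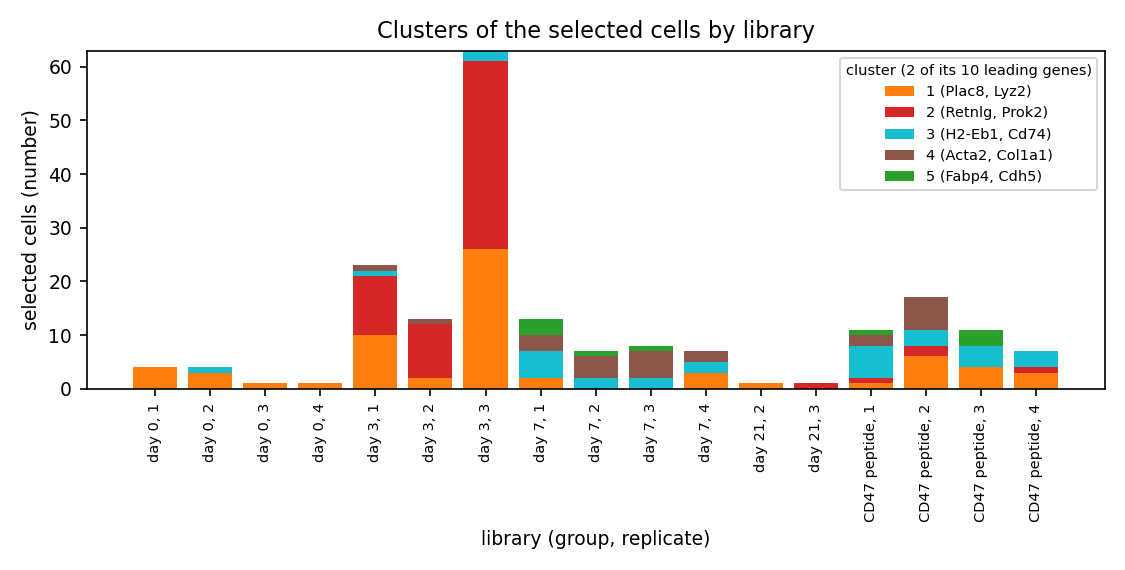
Number of selected cells (y axis) in each library that held any (x axis, group and replicate), stacked by cluster, with 2 of the 10 leading genes of each cluster in the legend. Cluster 2 holds 11, 10 and 35 cells of the 3 day 3 bars and is missing from all 4 day 7 bars.

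In the selected cells of day 3 the transcripts of neutrophils and of early inflammation were at high levels in each library. Retnlg (chromosome 16, 48872621 to 48874496, + strand, GRCm38) was at 6810, 10570 and 4824 CPM in replicates 1, 2 and 3, and averaged 151.7 CPM in kept cells on the monocyte side (at least 1 UMI of Csf1r, Csf1r at least as high as Csf3r and Cxcr2, C1q at most 3 UMIs), 209.9 CPM on the macrophage side (at least 1 UMI of Csf1r and more C1q) and 103.2 CPM in Pdgfra-positive cells. Slpi, an inhibitor of neutrophil elastase, was at 5361, 3447 and 3882 CPM, 4.47 to 11.7 times the monocyte side of the same library. Of the 15 identity genes 14 reached a mean of 50 CPM, and each of these 14 was higher in the selected cells than in all 3 other classes in 3 of 3 libraries. Of all 2133 genes at 50 CPM or more outside the rule, 29.0% were higher in 3 of 3 libraries than the monocyte side, 32.6% than the macrophage side and 48.3% than the Pdgfra-positive cells. The classes were cut by some of the same transcripts as the selected cells, so these are descriptions with no test. Of the granule genes, Lcn2 (lipocalin 2, which binds bacterial siderophores) was at 655.2, 1127 and 1522 CPM, while Ltf and Camp, made during maturation in the marrow, did not exceed 9.93 CPM. Ngp, another granule gene of maturation, was at 4.96, 78.1 and 68.1 CPM (39 UMIs in 11 of 99 cells), up to 59.7 times the monocyte side. Its level in replicate 1 lay below 14.9 CPM, the level of 3 UMIs there. Of the 5 primary granule genes Prtn3 (proteinase 3) was at 59.6, 11.2 and 50.5 CPM, at most 1.40 times the monocyte side. Its level in replicate 2 lay below 33.5 CPM, the level of 3 UMIs there. Mpo (myeloperoxidase), Elane (neutrophil elastase) and Ctsg (cathepsin G) were at 0 in all 3 libraries.

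Inflammatory mediators divided into those highest in the selected cells and those higher elsewhere. Il1b (interleukin 1β, chromosome 2, 129364570 to 129371139, − strand) was at 5028, 5444 and 6375 CPM, 1.58 to 1.96 times the monocyte side and 4.10 to 4.79 times the macrophage side. Cxcl2, a ligand of Cxcr2 (chromosome 5, 90903871 to 90905938, + strand), was at 8721, 7552 and 13520 CPM, 2.20 to 2.92 times the monocyte side. Ccl3 (928.2, 1115 and 2216 CPM) and Ccl4 (1777, 2432 and 3474 CPM), ligands of Ccr1, were 4.35 to 5.31 times and 4.66 to 10.4 times the monocyte side. In each of these 4 genes the selected cells were above all 3 other classes in every library of day 3. Tnf was at 342.5, 892.4 and 1230 CPM, 2.18 to 3.71 times the monocyte side, and Il1rn, the antagonist of the IL-1 receptor, at 853.8, 390.4 and 740 CPM, 3.40 to 4.77 times. By contrast, Ccl9 (774.3, 368.1 and 617 CPM) was 0.350 to 0.499 times the monocyte side, Tgfb1 (213.4, 100.4 and 171.3 CPM) 0.321 to 0.569 times, and Cxcl1, the other main Cxcr2 ligand, 0.149 to 0.263 times the Pdgfra-positive cells, which averaged 1393 CPM. Of 16 cytokines and chemokines at 50 CPM or more, 10 were higher and 3 lower than the monocyte side in all 3 libraries, where 29.0% of all genes were higher and 39.4% lower. Against the macrophage side 9 were higher and 3 lower, where 32.6% and 41.7% of all genes were.

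**Figure D4:**
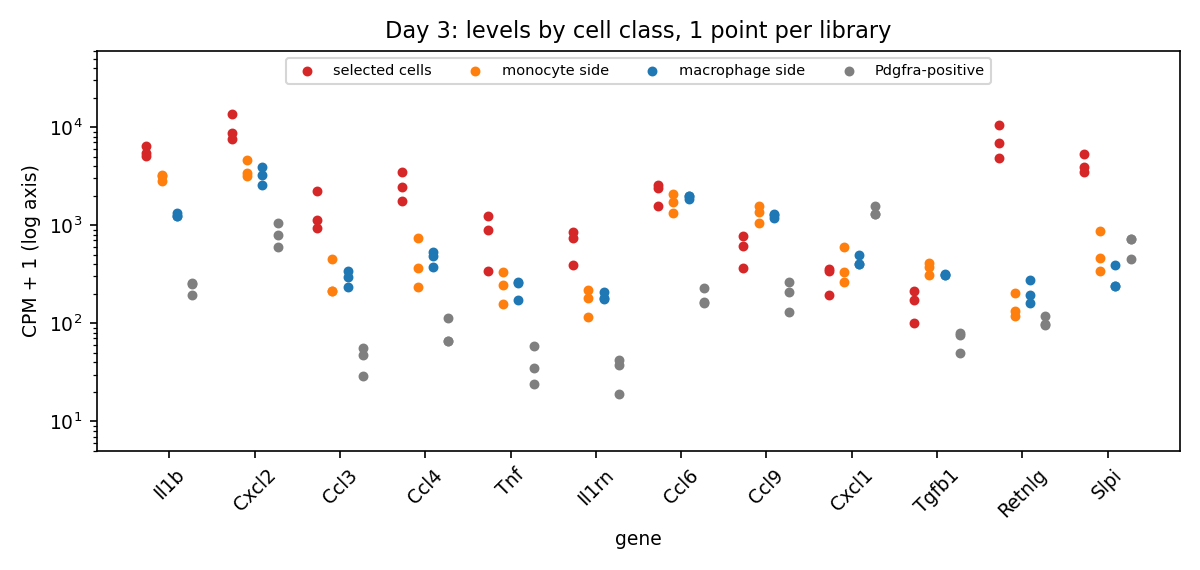
Levels at day 3 (y axis, CPM + 1, log scale) of 10 mediators and 2 identity genes (x axis), 1 point per library, in the selected cells, the monocyte side, the macrophage side and the Pdgfra-positive cells. Retnlg lies from 4824 CPM upwards in the selected cells against means of 103.2 to 209.9 CPM in the other classes, and Ccl9 and Tgfb1 lie lower in them than on the monocyte side in all 3 libraries.

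Receptors followed the same order. Of 14 receptors for chemoattractants and cytokines, 12 were higher and 1 lower in the selected cells than on the monocyte side in 3 of 3 libraries (29.0% and 39.4% of all genes), with Fpr1, the receptor for formylated bacterial peptides, at 287.9, 245.4 and 423.8 CPM or 7.18 to 11.2 times. Of the transcripts tied to the peptide, Cd47 was at 352.4, 290 and 322.8 CPM, Sirpa at 198.5, 189.6 and 191 CPM and Thbs1, a thrombospondin that binds CD47, at 1112, 937 and 1197 CPM. Of the list of 3 genes around CD47, none was higher and 2 were lower than the monocyte side in 3 of 3 libraries (29.0% and 39.4% of all genes). Against the macrophage side 1 was higher and 2 were lower (32.6% and 41.7% of all genes). Cd47 was at 343.4, 268.1, 223.1 and 404.3 CPM at day 7 and at 434.8, 409.2, 327.8 and 639.8 CPM with the peptide, and passed the test in neither comparison.

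Promoters of 3 mediators, Cxcl2, Cxcl3 and Il1b, and of the identity gene Retnlg are shown to compare those with and without the consensus of NF-kB, the factor through which IL-1 and TNF act. The stretches run from 250 to 51 bases before the RefSeq start of each gene (GRCm38.p6) in the direction of transcription, and capitals mark matches to the NF-kB consensus on either strand.
Cxcl2, chr5:90903649-90903848, + strand: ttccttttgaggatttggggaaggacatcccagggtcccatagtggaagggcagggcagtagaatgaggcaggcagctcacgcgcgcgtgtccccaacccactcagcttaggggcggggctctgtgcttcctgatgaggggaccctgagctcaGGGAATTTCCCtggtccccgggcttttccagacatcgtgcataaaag
Cxcl3, chr5:90785851-90786050, + strand: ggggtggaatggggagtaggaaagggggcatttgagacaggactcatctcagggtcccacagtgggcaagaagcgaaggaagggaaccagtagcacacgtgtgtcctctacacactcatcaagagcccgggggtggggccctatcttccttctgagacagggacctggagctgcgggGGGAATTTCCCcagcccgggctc
Il1b, chr2:129371190-129371389, − strand: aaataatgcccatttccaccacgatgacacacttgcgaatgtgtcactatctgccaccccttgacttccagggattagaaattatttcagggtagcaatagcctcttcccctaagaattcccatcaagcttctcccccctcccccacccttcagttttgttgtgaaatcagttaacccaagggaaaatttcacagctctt
Retnlg, chr16:48872358-48872557, + strand: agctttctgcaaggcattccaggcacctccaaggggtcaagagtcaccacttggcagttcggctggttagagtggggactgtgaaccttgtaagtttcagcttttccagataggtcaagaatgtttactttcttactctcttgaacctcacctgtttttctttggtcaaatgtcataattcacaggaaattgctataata
The chemokine genes Cxcl2 and Cxcl3 share the run GGGAATTTCCC, in which 2 matches overlap by all but 1 base, and no match lies in the stretches of Il1b and Retnlg. Over windows of 300 bases, 7 of 19 promoters of cytokines and chemokines (36.8%), 9 of 13 of NF-kB feedback genes (69.2%) and 0 of 13 of identity genes held a match, against 1480 of 32851 promoters (4.51%). A match describes the sequence only, and binding was not measured.

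The selected cells of day 7 held fewer transcripts of neutrophils and more of mural and stromal cells than those of day 3. The 2 groups differ in their cells, with 56 of 99 cells of day 3 and 0 of 35 of day 7 in cluster 2 and 2 and 14 in cluster 4, and a different makeup cannot be told apart from a change within cells. The planned test required 10 cells in a library, which left fewer than 2 libraries in day 0, day 7 and day 21, so that none of the 4 planned comparisons of genes could be fitted. With a minimum of 5 cells, an alternative, 3 libraries of day 3, 4 of day 7 and 4 of the peptide entered 1 edgeR quasi-likelihood fit on UMIs summed per library. Of 1260 genes tested, 276 were higher at day 7 (21.9%) and 309 lower (24.5%) at an adjusted p of 0.05, with a median log2 change of 0.09. Without the fourth replicates 570 genes passed in place of 585, and without day 3 replicate 3, which held the most cells, 336. With at least 2 UMIs of Csf3r and Cxcr2 267 passed, and 274 without cells of top doublet scores.

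Of the identity genes, 12 of 15 were abundant enough to be tested, of which 11 fell and none rose (24.5% of all genes fell), with a median log2 change of -2.39. Genes could pass the filter on abundance through a group in which they were high, so such counts only describe the lists. With at least 10 UMIs in every library, 18 of the 77 named results of this comparison could be tested and kept their call. Retnlg was at 292.5, 67.0, 74.4 and 80.8 CPM at day 7, below all libraries of day 3 (log2 change -5.93 ± 0.65 SE, edgeR adjusted p = 2.81e-04). In Pdgfra-positive cells of the same libraries its log2 ratio was -3.32, and the part of RNA shared across the library in the difference was not tested. Slpi was at 1539, 921.7, 99.2 and 303.2 CPM (log2 change -2.68 ± 0.68, edgeR adjusted p = 0.0084), and G0s2, an inhibitor of lipolysis high in neutrophils, at 279.8, 117.3, 124 and 80.8 CPM against 595.6, 457.3 and 1247 CPM. For both genes every library of day 7 was below every library of day 3. Stfa2l1, a stefin-like protease inhibitor, rested on 2 UMIs at day 7 and 530 at day 3, a ratio of pooled CPM of 81.0 (95% counting interval 22.3 to 670.4). The other identity genes that fell included Il1r2, a decoy receptor for IL-1, Hdc, which makes histamine, the activating receptors Trem1 and Clec4d, Wfdc21 and Mxd1.

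**Figure D5:**
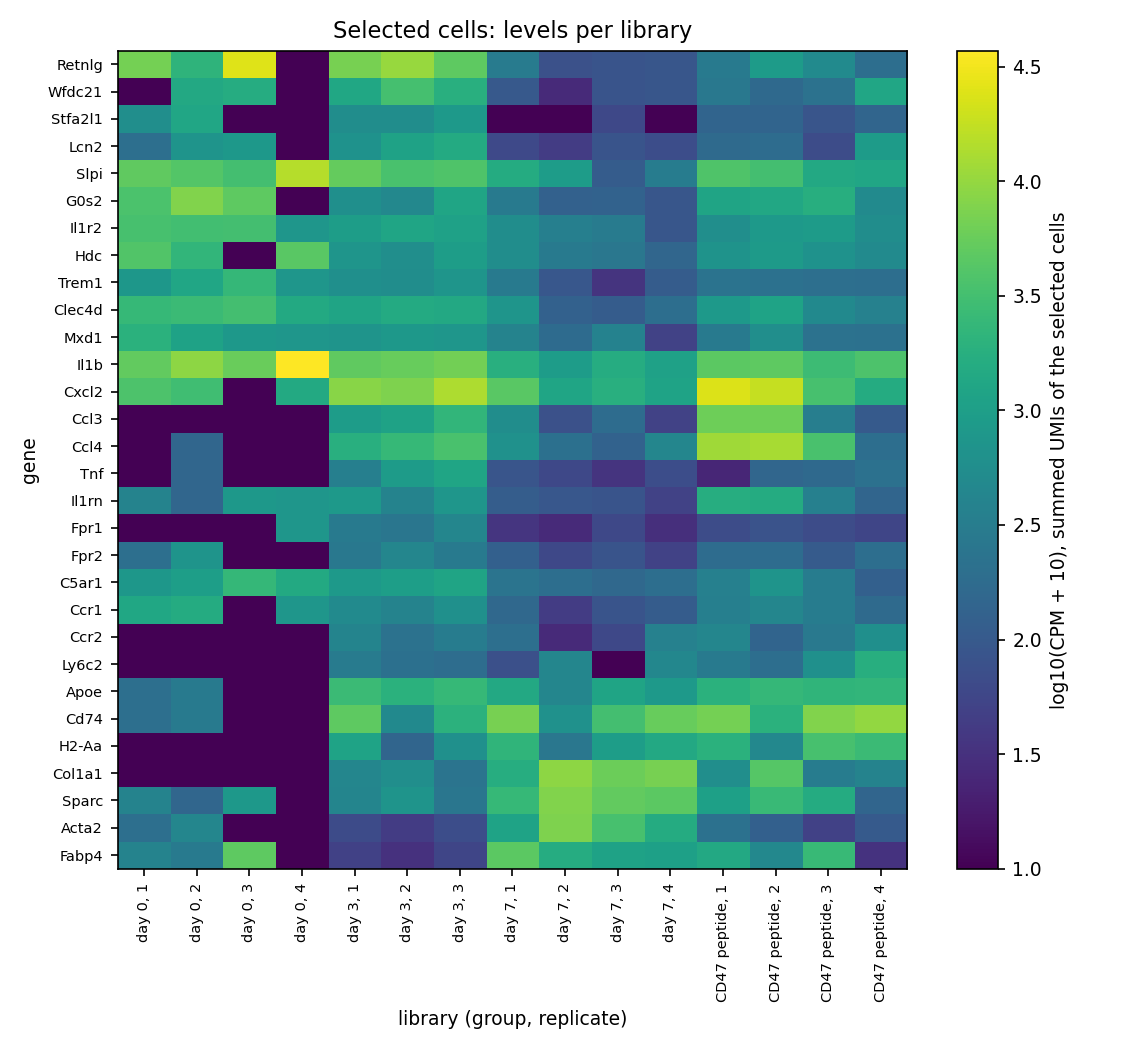
Levels of 30 genes (rows) in the summed selected cells of each library with selected cells at day 0, day 3, day 7 and with the peptide (columns), as log10 of CPM + 10 in colour. Identity genes in the upper rows, such as Retnlg, are brighter at day 3 than at day 7, Col1a1, Sparc, Acta2 and Fabp4 at the foot run the other way, and single UMIs make the day 0 columns coarse.

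Mediators and receptors also fell. Of 13 cytokines and chemokines tested, 7 were lower at day 7 (24.5% of all genes) and none higher (21.9% of all genes), with a median log2 change of -2.35. Il1b was at 1755, 938.4, 1611 and 1112 CPM, below all 3 libraries of day 3 (log2 change -2.22 ± 0.29, edgeR adjusted p = 4.18e-04). Tnf was at 76.3, 50.3, 24.8 and 60.6 CPM (log2 change -4.03 ± 0.63, edgeR adjusted p = 9.58e-04), again with no overlap. The remaining 5 were Cxcl2, Cxcl3, Ccl4, Ccl6 and Il1rn, with log2 changes of -3.87 to -2.35. In Pdgfra-positive cells of the same libraries the log2 ratio was -2.40 for Il1b, -2.30 for Cxcl2 and -3.08 for Ccl6, against -2.22, -2.35 and -2.48 in the selected cells. For Tnf it was -2.02 there. Against the same 24.5% of all genes, 9 of the 11 receptors tested fell, among them Fpr1 (log2 change -3.73), Fpr2, C5ar1, the receptor for complement C5a, Ccr1 and Tlr2, which binds bacterial lipoproteins. All 4 genes of adhesion that were tested fell, among them Itgb2, the β2 integrin chain, Cd44 and Selplg, the P-selectin ligand, as did 4 of 5 subunits of the NADPH oxidase, the enzyme of the oxidative burst, Ncf4, Cyba and Rac2 among them. In Pdgfra-positive cells the log2 ratio was -1.41 for Rac2 and -1.05 for Selplg, against -1.44 and -1.32 in the selected cells. Of all 62 named genes that fell at day 7, 58 were also lower in Pdgfra-positive cells, 24 of them by over 0.5 times the log2 change in the selected cells.

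Counts in genes of signalling and metabolism stand against the same 24.5% of all genes that fell. Of 6 NF-kB feedback genes tested 5 fell, with Nfkbia, which encodes IκBα and holds NF-kB in the cytosol, at 2983, 3190 and 3968 CPM at day 3 and 1208, 620, 1314 and 808.5 CPM at day 7 (log2 change -1.95 ± 0.30, edgeR adjusted p = 8.88e-04). Of 10 genes of hypoxia and glycolysis 7 fell, led by Hilpda (log2 change -2.69), a lipid droplet protein induced by low oxygen. All 3 tested genes of iron handling fell, the ferritins Fth1 and Ftl1 and the heme oxygenase Hmox1. The survival list was near that share with 2 of 7, Mcl1, which protects neutrophils from apoptosis (759.4, 769.7 and 827.8 CPM at day 3 and 254.4, 234.6, 347.1 and 343.6 CPM at day 7), and Bcl2l11, which promotes it. Of 6 interferon-stimulated genes Ifitm1 and Ifitm2 fell and Bst2 (tetherin) rose, with a log2 change of 2.37, where 24.5% of all genes fell and 21.9% rose. In further lists, 2 of 3 secondary granule genes (Lcn2 and Chil3), Adam8 of 2 tertiary granule genes, Sirpa of 3 genes around CD47, Cxcr4 of 3 genes of aged neutrophils and 2 of 10 immediate early genes (Junb and Klf6) fell, and none rose. The shares in the immediate early list (below 24.5%), in the interferon list and of 1 in 3 genes are no result about those lists.

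The 5 largest increases at day 7 were of other kinds. Rgs5, a regulator of G protein signalling in pericytes, was at 2238, 670.3, 148.7 and 1657 CPM at day 7, where 304 UMIs were counted against 3 at day 3 (ratio of pooled CPM 331.6, 95% counting interval 112.4 to 1617). Tagln, an actin-binding protein of smooth muscle, was at 4.96, 11.1 and 8.78 CPM at day 3 and at 559.6, 3486, 2033 and 404.3 CPM at day 7 (log2 change 7.35 ± 1.33, edgeR adjusted p = 0.00168). Myl9, a myosin light chain, and Aspn (asporin), a proteoglycan of the matrix, were higher in all 4 libraries of day 7 as well. In Pdgfra-positive cells of the same libraries the log2 ratio was 3.70 for Tagln, 2.78 for Aspn, 1.92 for Myl9, 0.32 for Rgs5 and -0.84 for Ccl5. Of 15 named genes that rose at day 7, 13 were also higher in Pdgfra-positive cells. For 3 of these the ratio was over 0.5 times the log2 change in the selected cells. Ccl5, a chemokine of T cells and some dendritic cells, was at 0, 0 and 8.78 CPM at day 3 and at 3892, 284.9, 24.8 and 646.8 CPM at day 7 (log2 change 7.52 ± 2.21, edgeR adjusted p = 0.0165). Of the marker lists of other cells, 6 of 7 stromal genes and both tested endothelial genes (Fabp4 and Egfl7) rose, against 21.9% of all genes, and none fell. Of 5 monocyte and macrophage markers Fn1 rose and Apoe and Cd68 fell, but with no limit on C1q Apoe had a log2 change of 0.90 (edgeR adjusted p = 0.39). Their log2 changes of 2.19, -1.45 and -1.77 stand beside ratios of 1.23, -1.23 and -1.66 in Pdgfra-positive cells. Of 3 dendritic and 3 erythroid genes tested none passed. The 5 largest decreases were in Stfa2l1, Retnlg, Gm5483, a stefin-like gene, F10 (coagulation factor X) and Wfdc21.

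The comparison of the peptide with day 7 asked whether activating CD47 around the injury changed these cells. Few genes differed: 21 of 1260 were higher with the peptide (1.67%) and 9 lower (0.714%) in the same edgeR fit, and 273 had an unadjusted p under 0.05. Without the fourth replicates 7 genes passed, 125 without day 7 replicate 1 and none when a cell had to hold at least 5 of the 15 identity genes (213 at an unadjusted p under 0.05). Of the 15 genes named for this comparison, 5 passed without the fourth replicates and 9 were weaker. The stromal markers summed above summed higher in 3 of the 4 libraries of day 7 than in any peptide library, and their part in the differences was not tested. The cells also differed in cluster, with 5, 0, 11, 14 and 5 cells of day 7 and 14, 4, 16, 8 and 4 of the peptide in clusters 1 to 5, and makeup cannot be told apart from a change within cells.

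Genes that were higher with the peptide included mediators of neutrophils and monocytes. Il1b was at 4681, 4818, 2757 and 3747 CPM, above all 4 libraries of day 7 (log2 change 1.66 ± 0.27, edgeR adjusted p = 0.0111). By cluster over all groups, Il1b was at 4885, 7117, 3743, 1292 and 1985 CPM in clusters 1 to 5. G0s2 was at 1188, 1391, 1735 and 502.7 CPM, again with no overlap (log2 change 3.01 ± 0.49, edgeR adjusted p = 0.0111). Il1rn was at 1667, 1545, 347.1 and 137.1 CPM against 40.4 to 101.7 CPM at day 7 (log2 change 3.69 ± 0.74, edgeR adjusted p = 0.0294). Il1rn was high in peptide replicates 1 and 2 and lower in 3 and 4, and so was Ccl3 (5986, 6097, 327.8 and 91.4 CPM), which overlapped with day 7 and did not pass (log2 change 3.94 ± 1.17, edgeR adjusted p = 0.0804). Ccl4 was at 11610, 12540, 3452 and 182.8 CPM, the lowest of which lay within the range of day 7 (log2 change 4.41 ± 0.97, edgeR adjusted p = 0.0365). Stfa2l1 rested on 32 UMIs with the peptide and 2 at day 7 (ratio of pooled CPM 13.9, 95% counting interval 3.55 to 119.8), and F10 on 34 and 1 (ratio 29.6, 95% counting interval 4.96 to 1201). Gadd45a, a stress-induced gene of growth arrest, Ccr1, Mcl1 and Dusp1, a phosphatase that switches off MAP kinases, were the further genes named by the rule.

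Of the lists, 2 of 12 identity genes tested, 3 of 13 cytokines and chemokines, 1 of 11 receptors, 1 of 7 survival genes and 1 of 10 immediate early genes were higher with the peptide (1.67% of all genes) and none was lower. The filter on abundance included the libraries of day 3, so that genes could enter through them. In a fit of the 2 groups alone, 4 of the 15 named genes passed, 5 were weaker and the others were not tested. Retnlg was at 289.9, 910.5, 501.3 and 182.8 CPM, 2 of which were below the highest library of day 7, and did not pass (log2 change 1.90 ± 0.59, edgeR adjusted p = 0.0853). None of the genes tested in the lists of granules, NADPH oxidase, adhesion, CD47 and its partners, NF-kB feedback, interferon, hypoxia and iron passed in either direction, nor did those of the marker lists of other cells. The 5 largest decreases were in contractile and matrix genes. Acta2, smooth muscle actin, was at 1183, 7507, 3347 and 1577 CPM at day 7 and at 202.9, 112.5, 38.6 and 91.4 CPM with the peptide (log2 change -4.81 ± 0.66, edgeR adjusted p = 0.0111). Over all groups Acta2 was at 4061 CPM in cluster 4 and at 42.2 to 73.1 CPM in the others, and cluster 4 held 3, 4, 5 and 2 cells of the day 7 libraries and 2, 6, 0 and 0 of the peptide libraries. Peptide replicate 2, with 6 of 17 cells in cluster 4, had Acta2 at 112.5 CPM, and day 7 replicate 1, with 3 of 13, had it at 1183 CPM. The part of this makeup in the change of Acta2 was not tested. Myl9, Tpm1, Tpm2 and Thbs2, a thrombospondin of the matrix, followed with log2 changes of -4.26 to -2.56. In Pdgfra-positive cells the log2 ratio of Acta2 between the same libraries was 0.07 and that of Il1b 0.43.

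Levels at day 0 and day 21 came from too few cells for a test. The selected cells of a day 0 library held 1252 to 7110 UMIs in all, so that 3 UMIs correspond to 421.9 to 2396 CPM. Retnlg was at 6634, 2110, 24760 and 0 CPM in the 4 libraries and Il1b at 5118, 9142, 5591 and 37150 CPM, both of them spread more widely than at day 3. Ccl3 was listed at 0 in all 4 libraries and Tnf in 3, levels at which fewer than 3 UMIs cannot be told from none. Each of the 2 cells of day 21 lacked a UMI of Retnlg, and the one from replicate 3, in cluster 2, held Ccl3 at 28950 CPM.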

How the data were processed

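Cells of the tenotomy site were captured on the 10x Chromium v2 kit, and the authors' deposited matrices hold UMI counts per gene and barcode from Cell Ranger, not normalized. The processing notes name GRCh38 for replicates 1 to 3 and mm10 for replicate 4, while all gene identifiers are of mouse. One day 0 file held all 737280 barcodes of the kit. Kept UMIs per library ranged from 3019467 to 39870492. Members, gene lists and tests were chosen with earlier results of these data known. Named genes were the 5 largest changes in each direction with no overlap between libraries and all list members past the threshold. Ngp, Prtn3, Mpo, Elane, Ctsg and Ccl3 were named after their values were seen.

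Counts of selected cells were summed per library. Genes were tested with edgeR 4.0.16 (quasi-likelihood, TMM, all 3 groups in 1 fit, R 4.3.3) with Benjamini-Hochberg adjustment. DESeq2 1.42.0 was an alternative. CPM are plain counts per 1000000 UMIs of the selected cells, and edgeR's fitted changes use TMM sizes. Libraries with fewer than 5 selected cells were left out of the fit, which dropped day 0 and day 21. Shares were compared by two-sided exact permutation tests. Cells were clustered on genes outside the rule with scanpy 1.11.5 at a resolution of 0.5. Doublets were scored and not removed. Promoters came from RefSeq. Some list members are counted but not reported here by name.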

Additional observations from a re-analysis of the deposited data

Results flagged for a closer look

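In 20 of 170 groups of 4 libraries examined, 1 library stood apart from the other 3 by Dixon's criterion. Its limit is set for 1 in 20 groups of normally distributed values. CPM from few UMIs do not follow that distribution, so the number flagged cannot be compared with chance. All values are CPM of the selected cells, and no cause was tested.

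Day 7 replicate 1 stood apart in Ccl5 (3892), Retnlg (292.5), F10 (12.7), Clec4d (712) and Fabp4 (4744), day 7 replicate 2 in Pgk1 (83.8), and day 7 replicate 3 in Stfa2l1 (49.6) and Gm5483 (198.3). Those of F10 and Stfa2l1 rest on 1 and 2 UMIs.

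With the peptide, replicate 1 stood apart in Ccl5 (1725), Tagln (420.3), Cxcl3 (6145) and Thbs2 (43.5). Replicate 2 stood apart in the collagens Col1a1 (4215), Col1a2 (3448) and Col3a1 (6077) and in Lum (409), in a library whose stromal markers also summed highest of the 4. Replicate 3 stood apart in Stfa2l1 (77.1) and Fpr2 (96.4), and replicate 4 in Wfdc21 (1280) and Lcn2 (914).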

How the results depend on the processing

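In place of 585 genes between day 7 and day 3, 1152 passed with no filter beyond 1 UMI, 147 with at least 10 UMIs in every library, 267 with at least 2 UMIs of Csf3r and Cxcr2, 274 without top doublet scores and 336 (without day 3 replicate 3) to 572 with 1 library left out. Apoe turned to a log2 change of 0.90 with no limit on C1q (edgeR adjusted p = 0.39). In place of 30 between the peptide and day 7, 97 passed by DESeq2, 197 with no filter beyond 1 UMI, 7 with at least 10 UMIs in every library, 16 with the replicate number as a block, 7 in a fit of the 2 groups alone, 7 without the fourth replicates, 0 with at least 2 UMIs of Csf3r and Cxcr2 (edgeR, 199 at an unadjusted p under 0.05), 18 without top doublet scores, 4 with no limit on C1q, 0 with at least 5 identity genes and 8 to 125 with 1 library left out (8, 12 and 9 without day 7 replicates 2, 3 and 4, 12 without peptide replicate 1 and 125 without day 7 replicate 1). The limits on C1q and identity genes were set after seeing the data. The causes of these changes were not tested, beyond fewer libraries, cells or genes entering. Of 77 and 15 named results, 38 and 0 passed under every alternative that tested them.

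Per cell with Ptprc, the share had H 8.10 (permutation p = 0.0696), and day 3 lay -0.119 percentage points from day 0. With at least 1000 genes day 21 lay 0.0276 above day 0. At a limit of 1% S100a8 and S100a9 the share with the peptide lay 0.2095 above day 7 (exact p = 0.0571), and at 0.25% it lay 0.2093 above (exact p = 0.0857). With at least 2 UMIs of Csf3r and Cxcr2 this difference was 0.0721 (exact p = 0.257). Leaving out 1 library gave 0.563 to 2.12 for day 3 against day 0, -2.18 to -0.625 for day 7 against day 3, -0.351 to -0.147 for day 21 against day 0 and 0.106 to 0.177 for the peptide. Samples with the same number correlated at -0.0956 to 0.210 in their deviations and were not taken as pairs. With the replicate block, permutation p-values of the shares were 0.5, 0.25, 0.25 and 0.125, and 543 genes passed between day 7 and day 3. The planned minimum of 10 cells, one of 20 and a limit of 1% S100a8 and S100a9 could not be fitted.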

Other observations

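Erythroid and primary granule transcripts were uneven among the peptide libraries. The 5 erythroid markers summed to 77320 CPM in the selected cells of peptide replicate 4, led by the globin Hbb-bs, and to 10210 CPM in those of day 7 replicate 2. Peptide replicate 4 also held Prtn3 at 754 CPM, Elane and Ctsg at 251.3 CPM each and Mpo at 114.2 CPM, which came from 2 cells for Prtn3 (33 UMIs) and 1 cell each for Elane (11 UMIs), Ctsg (11 UMIs) and Mpo (5 UMIs). These genes of granulocyte precursors were at 0 in the other 3 peptide libraries and all 4 of day 7. These genes were picked after their values were seen, and the library held 7 selected cells with 43764 UMIs.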
